A study of Mus musculus with 2 samples.

Results

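Rasgrf1, which encodes an exchange factor that loads Ras with GTP, and 9 other imprinted genes were followed in mammary tumors from mice fed GW9662, an irreversible antagonist of the nuclear receptor PPARγ, and in tumors from mice on control diet. Rasgrf1 was singled out because its signal was much higher on the GW9662 array, and the other genes, H19, Peg3, Mest, Plagl1, Cdkn1c, Grb10, Nnat, Dlk1 and Ndn, were listed to see whether they shared this direction. Rasgrf1 was thus selected on its signals on these same arrays, and its values are a description, while the other members were chosen by name with earlier results known. Every probe set annotated to 1 of these 10 genes alone was read. This gave 23 probe sets of 9 genes, out of 22690 probe sets and 12393 genes on the array. The only probe set that names H19, a noncoding RNA, also names the microRNA gene Mir675, so H19 was not read here.

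Both groups were wild-type female FVB mice, 5 weeks old at the start. All of them received 15 mg of the long-acting progestin medroxyprogesterone acetate under the skin and 4 weekly gavage doses of 1 mg DMBA, a polycyclic carcinogen. The GW9662 group then ate chow with 0.1% GW9662, beginning the day after the final DMBA dose, and the control group ate standard chow. Tumor RNA of 5 mice per diet was pooled and hybridized to 1 Affymetrix mouse expression array, so there were 2 arrays in all and no replicate arrays. No test between the diets was possible, differences are given by size, and mouse, tumor, pool and array cannot be told apart from diet. An array of this kind reads total RNA and does not separate the maternal from the paternal copy of a gene.

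Imprinted genes are expressed mainly from the copy inherited from 1 parent, set by DNA methylation placed in the germ line at control regions that often govern several neighboring genes. Many of them act on fetal and placental growth, and several are active in brain, muscle, fat precursors and connective tissue. In the mouse, Rasgrf1 is expressed from the paternal copy in the young brain, under a methylated region upstream of the gene, and its protein links calcium and calmodulin to Ras and Rac in neurons. Plagl1 encodes a zinc finger transcription factor that binds GC-rich sites and is known to regulate other imprinted genes.

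The proximal promoters of Rasgrf1 and Peg3 are shown because they were the only windows among the members to hold the letters GGGGCCCC, a site bound by PLAGL1, which stand in capitals. Both windows are 300 bases long, run from 250 bases before to 50 bases after the RefSeq transcript start in mouse build GRCm38.p6, and are written 5′ to 3′ on the strand of the gene. The Rasgrf1 window is chr9:89909525-89909824 on the plus strand, and the Peg3 window is chr7:6730370-6730669 on the minus strand.
Rasgrf1: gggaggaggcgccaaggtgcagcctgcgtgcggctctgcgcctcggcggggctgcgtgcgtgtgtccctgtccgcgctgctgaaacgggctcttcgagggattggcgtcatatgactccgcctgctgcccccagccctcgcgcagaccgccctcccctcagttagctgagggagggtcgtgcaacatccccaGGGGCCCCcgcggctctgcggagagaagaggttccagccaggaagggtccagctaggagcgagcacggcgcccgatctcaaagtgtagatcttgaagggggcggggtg
Peg3: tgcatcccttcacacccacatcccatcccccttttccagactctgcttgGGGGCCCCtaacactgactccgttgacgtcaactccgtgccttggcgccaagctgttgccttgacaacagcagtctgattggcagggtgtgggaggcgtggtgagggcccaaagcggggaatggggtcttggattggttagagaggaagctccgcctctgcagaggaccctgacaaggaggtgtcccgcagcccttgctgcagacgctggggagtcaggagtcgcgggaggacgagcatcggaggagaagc
The capitals begin 58 bases before the start of Rasgrf1 and 201 bases before the start of Peg3. These letters read the same on both strands and were found in 354 of 32851 mouse promoter windows, 1.08%. Among the 5427 windows whose GC content was within 5 percentage points of that of Rasgrf1, the share was 2.45%. A match describes the sequence and is not evidence of binding. The table held 11 windows of 8 members. The Rasgrf1 window has 26 CpG dinucleotides, more than 83.1% of all windows, whose median is 7. The Plagl1 window also has 26, and a Grb10 window has 45, the most among the members. The letters TGCCGC, read by the imprint-keeping factor ZFP57 when methylated, lay on either strand in 5 of the 11 member windows, of 4 genes, and 2 of the 5 are overlapping windows of Mest. The share was 11.6% of all windows and 25.9% of those near Rasgrf1 in GC content. The letters AGGTCA, the hexamer that PPARs read as a repeat, lay in none of the 11 member windows on either strand, against 16.3% of all windows.

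The 3 probe sets of Rasgrf1 were all higher in GW9662 tumors. The signal, a linear intensity in arbitrary units, was 689.3 on the GW9662 array and 42.4 on the control array at the brightest probe set. The second probe set had 211.4 on the GW9662 array and 51.1 on the control array. The third had 232.3 on the GW9662 array and 29.6 on the control array. The GW9662 signals lay above 100 and the control signals below 100 at every one of the 3. Signals under 100 were treated as too close to background to be ordered, a floor set by choice. A fold against such a signal is therefore given as a bound, with 100 in place of the dim value. As a scale for background, 33 probe sets for olfactory receptors, genes of smell neurons, had signals of at most 25.8. The bound for Rasgrf1 was at least 6.89-fold higher in GW9662 tumors at the brightest probe set, and at least 2.11-fold and at least 2.32-fold at the others. The measured log2 ratios of GW9662 over control were 4.02, 2.05 and 2.97. The suffix of the brightest probe set marks probes shared among several transcripts, and the other probe sets do not carry it. Without it the gene was read at 211.4 on the GW9662 array and 51.1 on the control array, which is at least 2.11-fold higher but below a signal of 300.

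To compare genes, each was read where its mean over the arrays was highest, that is, at its brightest probe set. Among 1899 genes with 3 or more probe sets, only Rasgrf1 had all of them at least 2-fold higher on the GW9662 array. At all of theirs, 7 genes were at least 2-fold lower. A gene with any probe set under 100 on both arrays could not meet this rule. Rasgrf1 was selected on these same signals, so its place among all genes is a description and not support. A signal of at least 300 on the GW9662 array with less than 100 on the control array was found for 2 genes, Rasgrf1 and Bex2. Bex2, a small adaptor protein abundant in brain, had 393.1 on the GW9662 array and 93.0 on the control array, at least 3.93-fold higher. The opposite pattern was found for 58 genes. Likeness here rests on 1 ratio between 2 arrays.

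**Figure D1:**
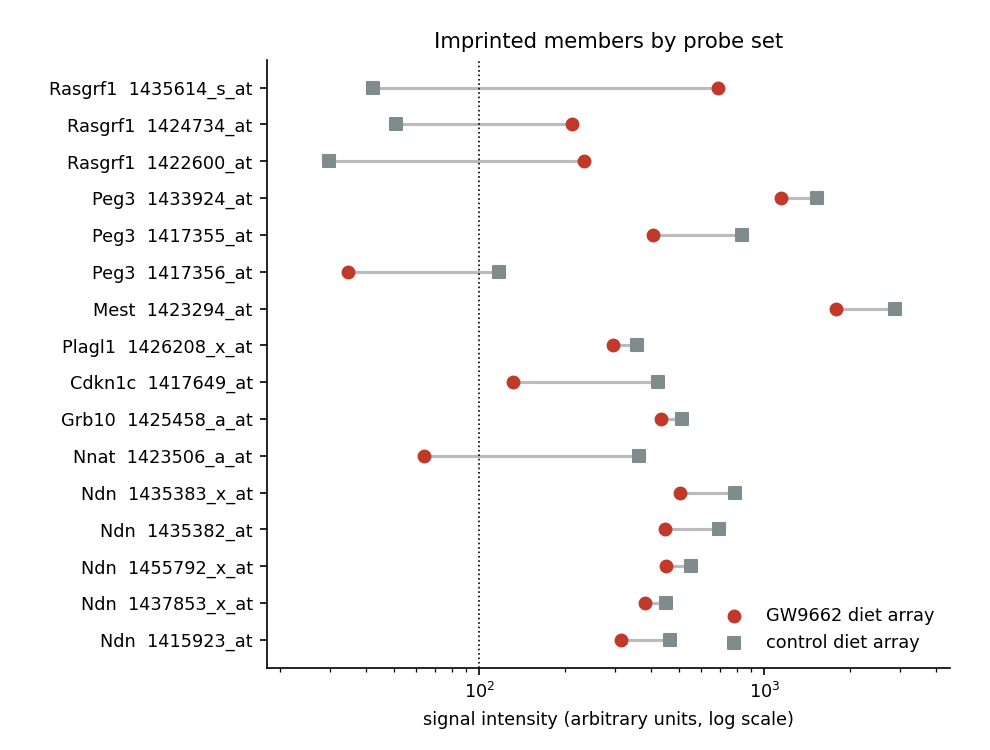
Signal intensity (arbitrary units, log scale) on the GW9662 diet array (red circles) and the control diet array (gray squares) for the 16 member probe sets that reached 100 on either array, joined by a line for each probe set. The dotted line marks a signal of 100. The 3 Rasgrf1 probe sets are higher on the GW9662 array, and the 13 probe sets of the other members are lower.

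None of the 7 other readable members shared the direction of Rasgrf1. A signal of 100 on either array was reached at 16 member probe sets. The 3 of Rasgrf1 were higher, and the 13 of the 7 other genes were lower in GW9662 tumors, with log2 ratios from -2.51 to -0.24. Among all 12246 probe sets with 1 gene and such a signal, 50.1% were lower. Probe sets of 1 gene read the same RNA, so the 13 are not 13 separate observations. The remaining 7 member probe sets were under 100 on both arrays, at most 55.1, and gave no direction.

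Among the zinc finger genes of the list, Peg3, a paternally expressed regulator of growth and cell survival, had a signal of 1143.2 on the GW9662 array and 1533.4 on the control array, 1.34-fold lower. Its other probe sets were also lower. The next had 405.1 on the GW9662 array and 837.1 on the control array, and the dimmest had 34.6 on the GW9662 array and 116.9 on the control array. The measured log2 ratios of Peg3 thus ran from -1.76 to -0.42. That of -1.76 rests on a signal under 100, and as a bound the dimmest probe set was at least 1.17-fold lower. Plagl1, which restrains the cell cycle, had 294.1 on the GW9662 array and 358.7 on the control array, 1.22-fold lower at a probe set of a kind open to cross-hybridization. Its second probe set had 2.3 on the GW9662 array and 2.0 on the control array, which gives no direction.

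Growth inhibitors were lower to very different degrees. Cdkn1c, the maternally expressed cyclin-dependent kinase inhibitor p57, had 131.4 on the GW9662 array and 422.1 on the control array, 3.21-fold lower at its only probe set. Grb10, an adaptor that restrains the insulin and IGF receptors, had 433.9 on the GW9662 array and 512.3 on the control array, 1.18-fold lower. The other 2 probe sets of Grb10 were under 100 on both arrays. Ndn, which encodes the growth suppressor necdin and lies in the mouse counterpart of the Prader-Willi region, was lower at all 5 of its readable probe sets. The brightest had 506.5 on the GW9662 array and 791.2 on the control array, 1.56-fold lower. The log2 ratios of the 5 ran from -0.64 to -0.25. The brightest and some others of the 5 are, like that of Plagl1, of a kind open to cross-hybridization. A probe set not of this kind had 447.1 on the GW9662 array and 694.5 on the control array, 1.55-fold lower. A further 3 Ndn probe sets were under 100 on both arrays.

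Genes tied to fat and neuroendocrine cells completed the list. Mest, a hydrolase-like protein that marks enlarging fat cells, had 1788.0 on the GW9662 array and 2865.1 on the control array, 1.60-fold lower. Nnat, a small membrane protein of brain, pancreatic islets and fat, had 63.9 on the GW9662 array and 363.7 on the control array, at least 3.64-fold lower, and it was the member with the lowest log2 ratio, -2.51. Dlk1, the transmembrane inhibitor of fat cell differentiation, had 55.1 on the GW9662 array and 47.5 on the control array, both under 100, so no direction was read.

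Of the 8 members with a mean signal of at least 100, 1 was higher and 7 were lower in GW9662 tumors. Over all 8009 such genes 47.1% were lower, and their median log2 ratio was 0.03. The median of the 7 lower members was -0.64. Differences of the size of those of Grb10 and Plagl1 (-0.24 and -0.29) were smaller than the spread between probe sets of the same gene, an SD of 0.36 over 2639 genes, which holds no variation between mice. Cdkn1c and Nnat lay far down the range of all genes, with 2.41% and 1.24% of genes below them. The corresponding shares were 8.55% for Mest, 9.34% for Ndn, 15.5% for Peg3, 22.9% for Plagl1 and 26.0% for Grb10.

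All 8 reached a signal of 300 on either array, and they included 1 that was at least 2-fold higher, Rasgrf1, and 2 that were at least 2-fold lower, Cdkn1c and Nnat. Over 6053 genes with that signal, 1.02% were at least 2-fold higher and 4.68% at least 2-fold lower. The higher count was fixed by how the list was drawn up, and nothing is read from it. The lower count rests on 2 genes, each with 1 probe set.

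The same questions were put to 65 imprinted genes written down from general knowledge, which include the members. The list gives 31 as paternally and 34 as maternally expressed. Whether any of them was imprinted in these tumors was not read. A probe set of their own was found for 47, of which 16 were under 100 on both arrays and 31 had a mean signal of at least 100. Of these 31 genes, 9 were higher and 22 were lower in GW9662 tumors, 71.0% lower beside 47.1% over all genes, with a median log2 ratio of -0.33 beside 0.03. Without the members the count was 8 higher and 15 lower, with a median of -0.23. Of 11 paternally expressed genes 3 were higher and 8 lower (median -0.42), and of 20 maternally expressed genes 6 were higher and 14 lower (median -0.28). With a signal of at least 300 there were 24 genes, of which 2 were at least 2-fold higher, Rasgrf1 and Meg3. At least 2-fold lower were 4, Nnat, Cdkn1c, Sgce and Dcn. Over all genes with that signal the shares were 1.02% higher and 4.68% lower. The higher count includes Rasgrf1, which was selected on these signals. Without the members, 1 of 16 was at least 2-fold higher and 2 were at least 2-fold lower.

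**Figure D2:**
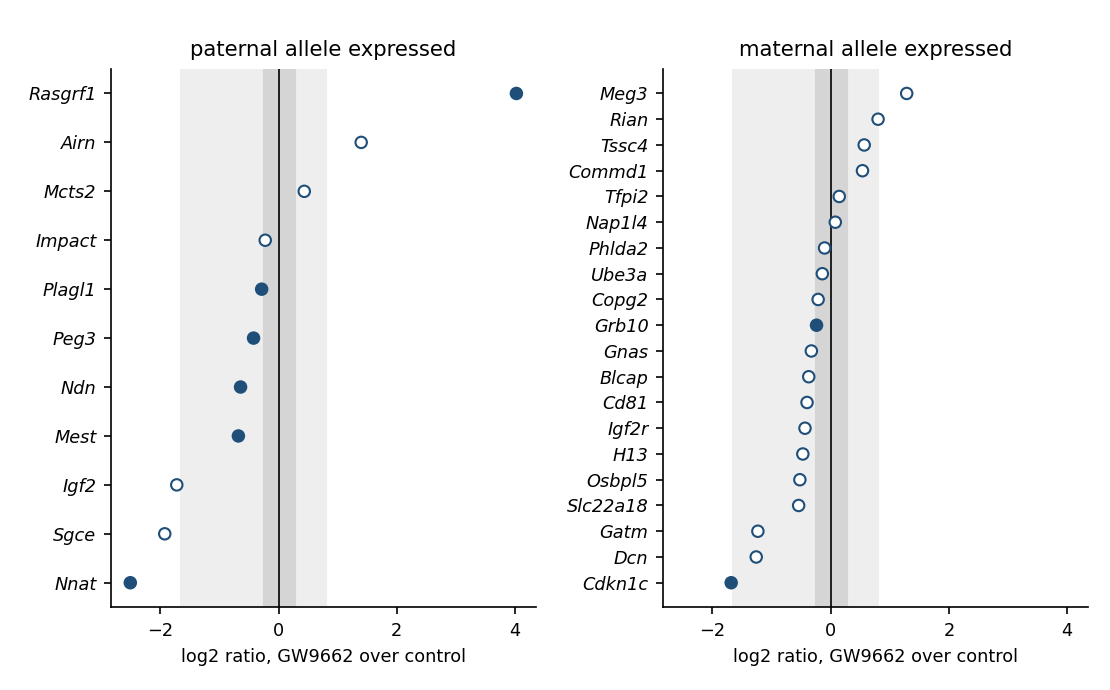
Log2 ratio of signal, GW9662 over control, for the 31 imprinted genes with a mean signal of at least 100, each at its brightest probe set, with paternally expressed genes on the left and maternally expressed genes on the right. Filled circles are the members, the light band spans the 0.025 to 0.975 quantiles of all 8009 genes (-1.65 to 0.80) and the dark band the 0.25 to 0.75 quantiles (-0.25 to 0.28). Rasgrf1 stands at 4.02, and 22 of the 31 genes lie left of 0.

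Meg3 and Rian, long noncoding RNAs made from the maternal copy of the cluster that also holds Dlk1, were both higher in GW9662 tumors. Meg3 had 730.8 on the GW9662 array and 299.8 on the control array at its brightest probe set, 2.44-fold higher. That probe set is also of a kind open to cross-hybridization. A second probe set of Meg3 had 382.6 on the GW9662 array and 129.4 on the control array, 2.96-fold higher, and 2 dimmer ones were at least 1.79-fold and at least 1.67-fold higher. Rian had 315.3 on the GW9662 array and 180.9 on the control array, 1.74-fold higher. Meg3 and Rian thus went the way of Rasgrf1 while Dlk1, made from the paternal copy of the same cluster, was not readable.

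Airn, the paternally expressed noncoding RNA that silences Igf2r, was also higher, with 290.8 on the GW9662 array and 110.4 on the control array, 2.63-fold, but it missed the signal minimum of 300. Igf2r, the maternally expressed receptor that clears IGF2, was 1.35-fold lower, with 454.6 on the GW9662 array and 614.6 on the control array, and its second probe set had 434.0 on the GW9662 array and 631.7 on the control array. Igf2 itself, the fetal growth factor, had 60.9 on the GW9662 array and 201.0 on the control array, at least 2.01-fold lower with a signal below 300. It adjoins H19, which was not read.

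Genes of clusters that hold a member differed unequally. Around Cdkn1c, the tetraspanin gene Cd81 had 4756.6 on the GW9662 array and 6278.3 on the control array, 1.32-fold lower. Tssc4 of the same cluster had 588.7 on the GW9662 array and 397.5 on the control array, 1.48-fold higher, and the histone chaperone gene Nap1l4 had 1795.5 on the GW9662 array and 1701.2 on the control array. Over the whole cluster the log2 ratios of 7 genes ran from -1.68 for Cdkn1c to 0.57 for Tssc4. Kcnq1 and Ascl2 of this cluster were under 100 on both arrays.

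Nnat lies within an intron of Blcap, a regulator of apoptosis, and Blcap differed less. Blcap had 541.2 on the GW9662 array and 700.2 on the control array, 1.29-fold lower, while Nnat was at least 3.64-fold lower. Copg2, the coat protein gene next to Mest, had 656.7 on the GW9662 array and 760.8 on the control array, 1.16-fold lower. Ube3a is the ubiquitin ligase gene in the region of Ndn. Its brightest probe set had 1330.1 on the GW9662 array and 1467.5 on the control array. The 3 Ube3a probe sets with a mean signal of at least 100 ran from -0.14 to 0.64 in log2 ratio, and only the brightest was below 0. Another Ube3a probe set was under 100 on both arrays. Magel2, Mkrn3 and Peg12 of that region and Usp29 and Zim1 next to Peg3 were under 100 on both arrays. The bright probe sets of Snrpn also name Snurf and were not read.

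**Figure D3:**
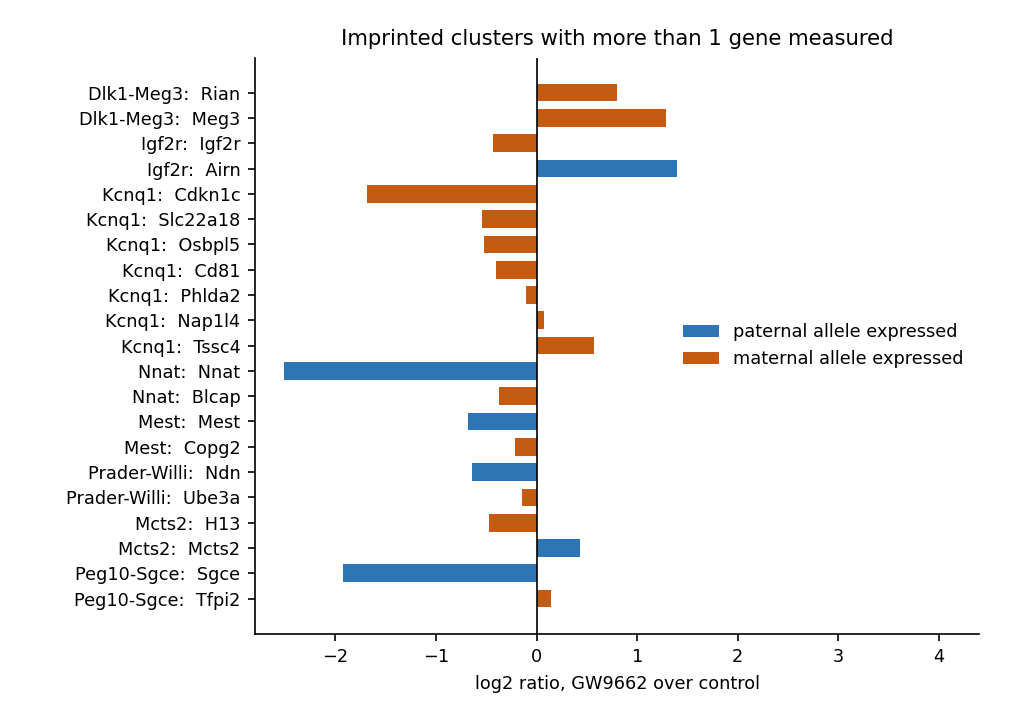
Log2 ratio of signal, GW9662 over control, for imprinted genes with a mean signal of at least 100 that share a cluster, 1 bar for each gene at its brightest probe set, colored by the parental copy expressed. Bars start at 0, and genes of 1 cluster lie on both sides of 0 in the Igf2r, Kcnq1, Mcts2 and Peg10-Sgce clusters.

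Of the remaining imprinted genes past 2-fold, Sgce, a sarcoglycan of muscle and other membranes, had 97.0 on the GW9662 array and 368.6 on the control array, at least 3.69-fold lower. Dcn, the collagen-binding proteoglycan decorin, had 2924.9 on the GW9662 array and 7005.2 on the control array, 2.40-fold lower. Dcn is also on the fibroblast list described further on. Gatm, the first enzyme of creatine synthesis, was 2.35-fold lower with a signal below 300, with 110.9 on the GW9662 array and 260.5 on the control array. Of the 6 imprinted genes with the highest mean signal, Dcn was the only 1 past 2-fold, and Mest, Cd81 and Nap1l4 are given above. Gnas, the stimulatory G protein alpha subunit, had 5082.9 on the GW9662 array and 6377.3 on the control array, 1.25-fold lower, and Commd1, a regulator of copper and NF-κB, had 2009.5 on the GW9662 array and 1384.5 on the control array, 1.45-fold higher.

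Of the listed factors that place or keep imprints, 9 reached a signal of 300, and none of these was past 2-fold. Over all genes with that signal 1.02% were at least 2-fold higher and 4.68% at least 2-fold lower. With so few genes, nothing is read from the absence. Of 10 measured genes of this list 7 were higher and 3 were lower, with a median log2 ratio of 0.15. Dnmt1, the methyltransferase that copies DNA methylation at replication, had 1646.5 on the GW9662 array and 989.0 on the control array, 1.66-fold higher. Trim28, the corepressor that ZFP57 recruits, had 1416.6 on the GW9662 array and 1440.8 on the control array, and the insulator protein gene Ctcf had 1146.6 on the GW9662 array and 1186.2 on the control array. Zfp57 itself was under 100 on both arrays, with 13.9 on the GW9662 array and 25.1 on the control array.

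Rasgrf1 was also set beside genes of its own pathway. Of 7 measured exchange factors for Ras-family proteins, 3 were higher and 4 were lower, with a median of -0.24, and Rasgrf1 was the only 1 past 2-fold with a signal of at least 300. Rasgrp2 and Rgl1 were at least 2.38-fold and 2.29-fold lower with signals below 300. The closest relative of Rasgrf1, Rasgrf2, had 1.3 on the GW9662 array and 14.4 on the control array. Rgl2, an exchange factor for Ral, had 740.6 on the GW9662 array and 616.3 on the control array, and Sos2, which couples growth factor receptors to Ras, had 577.8 on the GW9662 array and 484.0 on the control array. Of 22 measured Ras-family GTPases, their GTPase-activating proteins, effectors and feedback genes, 11 were higher and 11 were lower, with a median of 0.02. Of the 21 with a signal of at least 300, 0 were past 2-fold, beside 1.02% higher and 4.68% lower over all genes. The brightest were Rap1b, with 3829.5 on the GW9662 array and 4610.1 on the control array, Rac1, with 3186.4 on the GW9662 array and 4667.5 on the control array, and Cdc42, with 3684.8 on the GW9662 array and 3906.1 on the control array.

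The genes beside Rasgrf1 on chromosome 9 were nearly level. Ctsh, a lysosomal protease and the next gene in RefSeq order, had 1822.7 on the GW9662 array and 2027.7 on the control array. Tmed3, a cargo receptor of the secretory pathway on the other side, had 5267.6 on the GW9662 array and 4727.0 on the control array. Of the 5 nearest genes with a probe set on each side, 6 were readable, all within 1.14-fold of equal, and Zic1, Zic4, Trim43a and Nt5e were under 100 on both arrays. Psma4, a proteasome subunit on the written list of chromosome 9 genes but not among these, had 4266.8 on the GW9662 array and 3338.3 on the control array.

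Marker signals of several cell types differed between the arrays. They are given beside the imprinted genes because several of those genes are expressed in fat, muscle and connective tissue. In bulk tumor RNA, fewer cells of a type and less RNA per cell cannot be told apart. All 14 measured adipocyte markers were lower in GW9662 tumors, with a summed signal of 8643.7 on the GW9662 array and 70431.7 on the control array and a median log2 ratio of -4.08. The brightest, the fatty acid carrier Fabp4, had 3097.0 on the GW9662 array and 13670.0 on the control array, and the carbonic anhydrase Car3 had 2329.6 on the GW9662 array and 13263.5 on the control array. All 14 measured skeletal muscle markers were lower too, with a median of -3.15, and the 19 with a probe set summed to 1638.7 on the GW9662 array and 13489.5 on the control array. Skeletal actin (Acta1) was the brightest, with 284.8 on the GW9662 array and 2488.4 on the control array, and Ryr1 and the muscle regulators Myod1, Myog and Pax7 were under 100 on both arrays. All 10 measured endothelial markers were lower, with a median of -0.78, and the 11 with a probe set summed to 3455.8 on the GW9662 array and 6182.5 on the control array. The brightest of them, the adhesion molecule gene Esam, had 531.4 on the GW9662 array and 1055.2 on the control array. Of 9 fat precursor and mesenchymal markers 6 were lower, with a median of -0.45, and the 11 with a probe set summed to 7142.5 on the GW9662 array and 10125.5 on the control array. The 2 past 2-fold were Dpt, with 513.1 on the GW9662 array and 2522.2 on the control array, and Pi16, with 103.2 on the GW9662 array and 557.5 on the control array. Pdgfrb, the brightest, had 1840.6 on the GW9662 array and 1444.3 on the control array, and Zfp423 was under 100 on both. Of 13 fibroblast markers 11 were lower, with a median of -0.12, and the sums were 47101.5 on the GW9662 array and 58047.4 on the control array. Collagen III (Col3a1) had 8005.3 on the GW9662 array and 9709.2 on the control array. The part of these cells in the lower signals of Nnat, Cdkn1c, Mest, Ndn, Peg3, Sgce, Igf2 and Dcn was not tested.

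The luminal keratins were bright and nearly level on both arrays. Krt8, a keratin of luminal mammary cells, had 9664.7 on the GW9662 array and 9496.4 on the control array, and Krt18 had 9025.3 on the GW9662 array and 10018.0 on the control array. Of 12 luminal markers 8 were higher, with a median of 0.19. Elf5, a transcription factor of secretory progenitors, was the 1 past 2-fold, with 2040.0 on the GW9662 array and 4138.4 on the control array, while Esr1 and Pgr, the estrogen and progesterone receptors, were under 100 on both arrays. Of 10 myoepithelial and basal markers 7 were lower, with a median of -0.33. The basal keratin Krt5 had 793.1 on the GW9662 array and 1255.7 on the control array, and Krt14 had 619.5 on the GW9662 array and 1022.0 on the control array. The brightest was the smooth muscle actin gene Acta2, with 9275.4 on the GW9662 array and 9558.9 on the control array. Of 7 measured leukocyte markers 3 were higher and 4 were lower, with a median of -0.07, and the lysozyme gene Lyz2 had 5694.5 on the GW9662 array and 6942.8 on the control array. The lymphocyte genes Cd3e, Cd4, Cd8a, Cd79a, Cd79b and Ms4a1 were under 100 on both arrays. Among genes of keratinized epithelium 3 were measured, the brightest being Sprr1a, with 895.9 on the GW9662 array and 662.1 on the control array.

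Rasgrf1 is best known from neurons and neuroendocrine cells, and most markers of these cells were near background on both arrays. Of 21 such markers with a probe set, 19 were under 100 on both arrays, and the summed signal of the list was 603.6 on the GW9662 array and 916.9 on the control array. The synaptic genes Snap25 and Syp had 19.8 and 22.2 on the GW9662 array and 51.4 and 33.2 on the control array, and chromogranin A (Chga) had 20.0 on the GW9662 array and 13.8 on the control array. The 2 readable markers were the adhesion molecule gene Ncam1, with 153.2 on the GW9662 array and 154.0 on the control array, and the granin Scg3, with 52.0 on the GW9662 array and 324.2 on the control array.

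**Figure D4:**
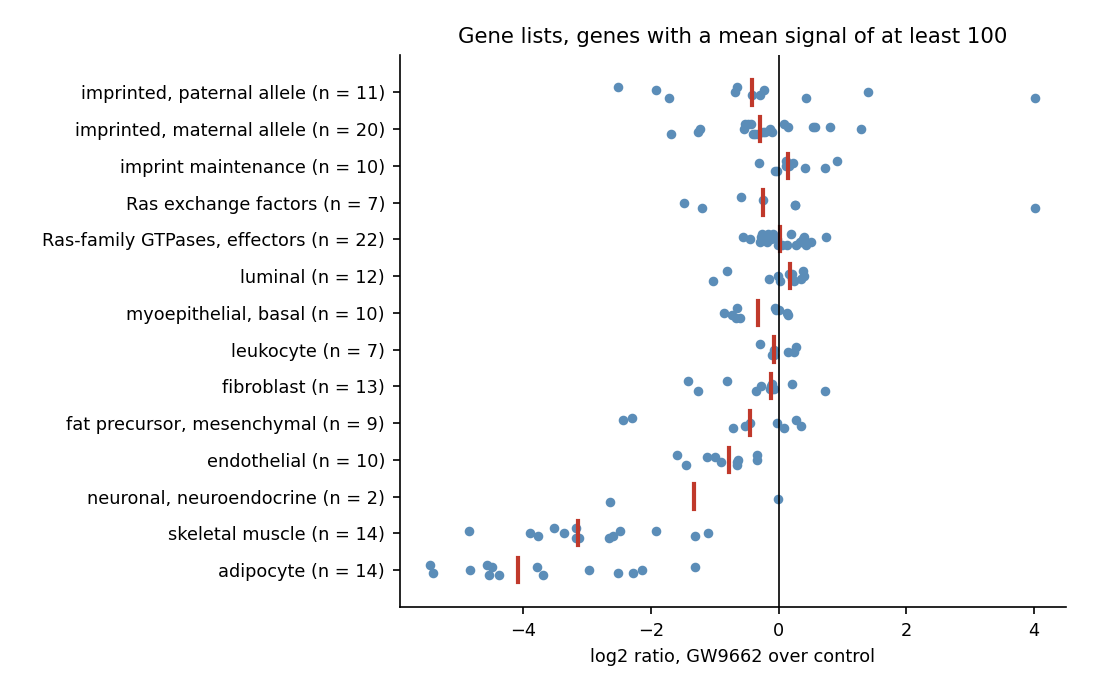
Log2 ratio of signal, GW9662 over control, for each gene with a mean signal of at least 100 in the lists of imprinted genes, pathway genes and cell type markers, 1 point for each gene at its brightest probe set and a red bar at the median of the list. The median is -0.42 for paternally and -0.28 for maternally expressed imprinted genes, -4.08 for adipocyte and -3.15 for skeletal muscle markers and 0.19 for luminal markers.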

How the data were processed

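Tumor RNA was read on 2 arrays, 1 for the GW9662 diet and 1 for the control diet. According to the submitters' processing notes, Affymetrix GeneChip Operating Software 1.1 was used. Each probe set has 1 signal intensity per array as deposited, on a linear scale. The way the authors combined and scaled the probes is not given in the sources used here. A 2% trimmed mean of 500.2 was computed for each array, and the arrays were not rescaled. On the log2 scale, 0.1 replaced 3 zero values of the control array. Depth does not apply to arrays, and their number limits the precision.

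Names came from the platform annotation, updated to RefSeq symbols (GRCm38.p6). A single gene was named for 20380 probe sets, several for 691, which were not read, and none for 1555, and 64 were controls. A gene counted as past 2-fold only where either signal reached 300, and list medians took genes with a mean signal of at least 100.

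The members and gene lists were chosen with earlier results of these data known. The text names every member, other imprinted genes past 2-fold, the brightest genes of each list, genes sharing a cluster with a member and near-background markers. Rian, Airn, Igf2r, Igf2, Gatm, Rasgrp2, Rgl1, Elf5, Krt5, Krt14, Dpt and Pi16 were named besides, after their values were seen. The counting rule was tested on simulated data. Software was numpy 2.4.6, matplotlib 3.10.9 and pandas 2.3.3 under Python 3.11.15. Other scalings, probe set choices, floors, folds and signal minimums were tried.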

Additional observations from a re-analysis of the deposited data

How the results depend on the processing

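The reading of Rasgrf1 depended on its brightest probe set. Without probe sets that share probes between transcripts, Rasgrf1 was at least 2.11-fold higher (log2 ratio 2.05) but below a signal of 300, so 0 members and 1 imprinted gene of the wider list, Meg3, were at least 2-fold higher. Taking the median over its probe sets gave a bound of 2.32-fold (log2 ratio 2.97). Under 6 further settings, scaling and floors among them, the bound lay between 6.86 and 7.72, although the log2 ratio was 2.79 with signals under 100 set to 100. The floors and the choice of probe set by its higher signal could not move the bound, which stayed at 6.89. At 2.5-fold and at 3-fold, 1 gene of the wider imprinted list was higher, and at 1.5-fold 4 members were lower. Of 56 alternative log2 ratios of the 7 other readable members, 55 were below 0. The exception was Plagl1 at 0.20, read without shared probe sets at a probe set under 100 on both arrays. Many of the 56 only repeat the main value, so their count is not support for the direction. The choice of probe set by its higher signal and the lower floor moved none of the 7 genes. The floor at 100 moved only Nnat, and leaving out shared probe sets moved only Plagl1 and Ndn. Only rescaling the arrays moved all 7 values, and these stayed below 0. Among the 7 genes, Peg3 at -1.05 and Ndn at -0.27 with the median over probe sets moved by more than the spread between probe sets. So did Nnat at -1.86 with signals under 100 set to 100, and Plagl1 at 0.20 without shared probe sets. The Ndn median took in its 3 probe sets under 100 on both arrays, which give no direction. The median of the wider imprinted list lay between -0.37 and -0.16. Of its genes, 4 were at least 2-fold lower, or 6 with the signal minimum at 100. At 1.5-fold 6 of them were lower, and at 2.5-fold and at 3-fold 3 were lower. Centring used the hybridization controls, among other choices, whose median log2 ratio was -0.16 over 18 probe sets. No paired analysis was possible because each diet had 1 pooled array. With 1 array per diet, no difference has a replicate check.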
